A study of Mus musculus with 9 samples.

Results

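The genes described here encode the proteins of the mitochondrial ribosome. They were found by symbol, as the protein-coding genes whose mouse symbol begins with Mrpl or Mrps and a digit, and 77 such members stood among the 38293 genes of the count table. The names Mrpl and Mrps stand for the large and the small subunit, and by known structure 50 members belong to the large subunit, 26 to the small subunit and 1, Mrps36, to neither. Annotated pseudogenes with such a symbol were left out, 6 in all, of which 4 had a row. Mrpl33 was not analysed here. Of the 77 members, 76 passed the filter on low counts in each comparison, and Mrpl53 did not.

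Poly-A RNA of E14, a single mouse embryonic stem cell line of strain 129/Ola, was sequenced in 3 culture states with 3 libraries each. mESC-2i were kept without serum in leukaemia inhibitory factor (LIF, 10 ng/mL), the MEK inhibitor PD0325901 (1 µM) and the GSK3 inhibitor CHIR99021 (3 µM), a medium that holds cells near the naive state of the early embryo. mESC-ser were kept on gelatin with LIF and 15% serum, where cells drift between naive and more advanced states. EpiLC, epiblast-like cells that model the embryo shortly after implantation, were made from mESC-2i on fibronectin with activin A (20 ng/mL), bFGF (12 ng/mL) and knockout serum replacement (KSR, 1%), for a time that the sources used here do not give. The labels call the libraries biological replicates, all of 1 cell line, and do not say whether the cultures were separate, so p-values measure the spread between these libraries, which may be technical.

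Mitochondria hold their own ribosomes, which translate only the few messenger RNAs of the mitochondrial genome, all of them for subunits of the respiratory chain and of ATP synthase. Their RNAs are made inside the organelle, but every protein of the ribosome is encoded in the nucleus, translated in the cytosol and imported. Many members descend from bacterial ribosomal proteins, and others were added during the evolution of mitochondria, among them proteins that anchor the ribosome at the inner membrane where its products are inserted.

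The libraries held between 7187576 and 16829549 counts. The deposited counts were scaled to CPM, the counts of a gene relative to the library total, with TMM factors over the 9 libraries. The summed level of 6 naive markers (among them Nanog and Esrrb) was 3027 to 3105 CPM for mESC-2i, 1631 to 1687 for mESC-ser and 90.6 to 103 for EpiLC. The summed level of 4 formative markers (Fgf5, Otx2, Dnmt3b and Pou3f1) ran the other way, with 71.8 to 80.3 CPM for mESC-2i, 609 to 711 for mESC-ser and 1620.4 to 1709 for EpiLC. The state labels and the markers therefore ran in the same order. The summed levels of 3 markers each of primitive endoderm, trophectoderm and fibroblasts stayed at or under 75 CPM in every library. The part of other cell types in the results below was not tested. In bulk RNA a level is a share of all reads, so fewer cells expressing a gene and less of its RNA per cell cannot be told apart.

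Members together took a larger share of the counts in EpiLC than in either mESC state. Their share of all counts was 0.796, 0.823 and 0.792% in the EpiLC libraries, 0.436, 0.466 and 0.377% in those of mESC-2i, and 0.387, 0.395 and 0.325% in those of mESC-ser. Every EpiLC library lay above every mESC library, whereas the mESC-2i and mESC-ser libraries overlapped. The mean share (± SD, n = 3) was 0.804 ± 0.017% for EpiLC, 0.426 ± 0.045% for mESC-2i and 0.369 ± 0.038% for mESC-ser, a ratio of 1.89 between EpiLC and mESC-2i and of 2.18 between EpiLC and mESC-ser. Replicate 3 of both mESC states had the lowest share of its group. In mean CPM, 50 of the 76 members followed the order EpiLC, mESC-2i, mESC-ser from high to low, and 25 the order EpiLC, mESC-ser, mESC-2i. The exception, Mrps2, stood highest in mESC-2i.

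**Figure D1:**
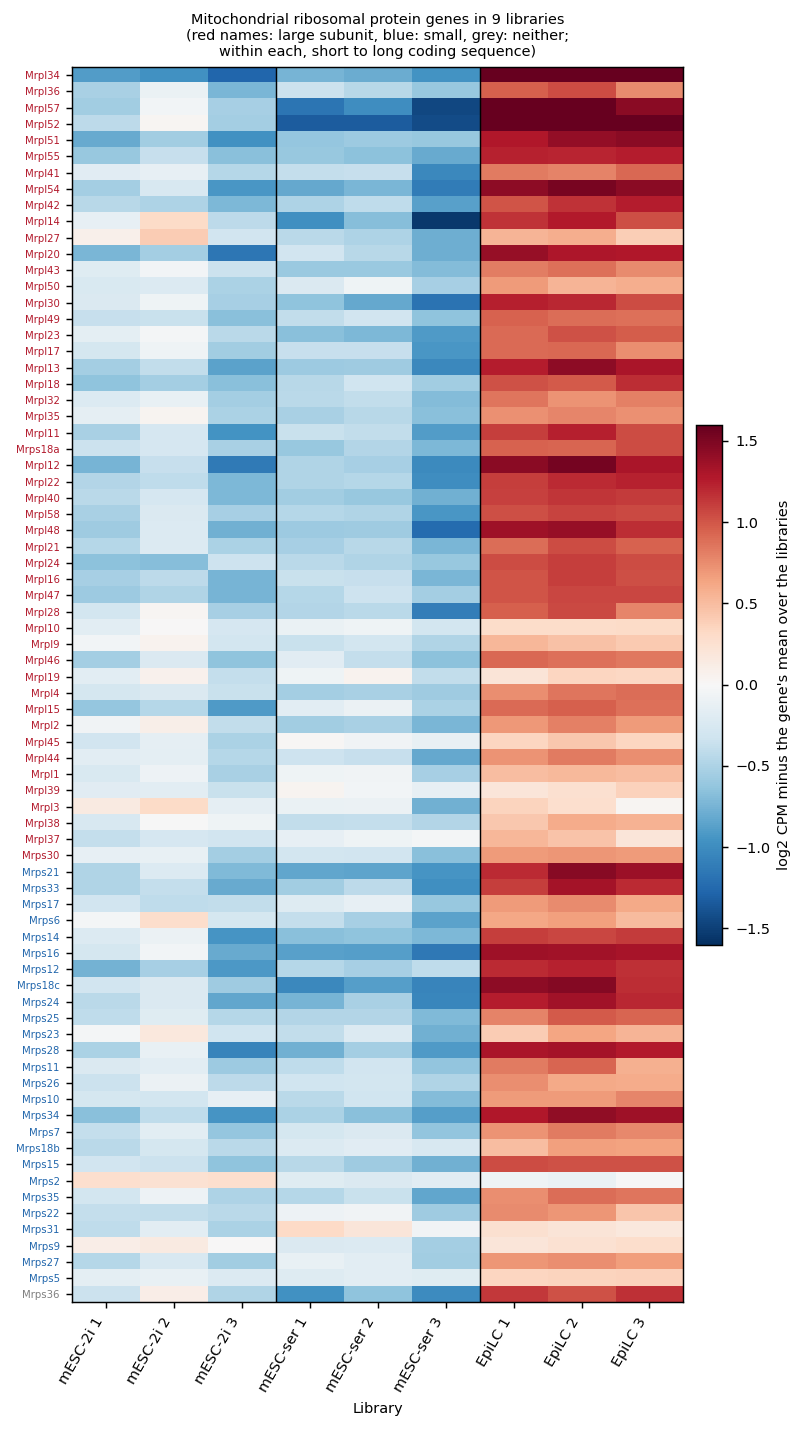
Heat map of the 76 members that passed the filter (rows) in the 9 libraries (columns). Colour gives log2 CPM minus the mean of the gene over the libraries, red for higher and blue for lower, and rows are ordered by subunit and then by the length of the coding sequence. The 3 EpiLC columns are red for nearly all members, and Mrps2 is the row in which mESC-2i stand highest.

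Most of these proteins stand once in each ribosome, and their RNAs differed widely in level. Compared per kilobase of the longest coding transcript, the median member lay at 62.5 CPM per kb in EpiLC, 29.9 in mESC-2i and 27.7 in mESC-ser. The 90th percentile stood above the 10th by a factor of 8.31 in EpiLC, 6.24 in mESC-ser and 6 in mESC-2i. Mrpl42, a large-subunit protein found only in mitochondria, was highest in both mESC states, with 120.2 and 118 CPM per kb. It was followed in mESC-2i by Mrpl52 (85.8) and Mrpl2 (81.3), and in mESC-ser by Mrpl20 (83.6) and Mrps18b (82.0). In EpiLC the highest levels per kilobase were those of Mrpl34 (418), Mrpl42 (389) and Mrpl52 (335). Mrpl48 was lowest in each state, at 3.10, 2.59 and 10.9 CPM per kb. It was joined at the bottom by Mrps25 and Mrpl57 in both mESC states, and by Mrpl19 and Mrpl3 in EpiLC.

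The order depends on which transcript is taken as the length. Per kilobase of all exons merged, Mrpl2 led in mESC-2i (71.7 CPM per kb) and Mrpl34 in mESC-ser (64.1) and EpiLC (418), and Mrpl48 again stood last in each state. The rank order of members was alike between the states, with a Spearman rank correlation over the 76 members of 0.94 between mESC-2i and mESC-ser, 0.87 between mESC-2i and EpiLC and 0.83 between mESC-ser and EpiLC. These are descriptions across genes, which share libraries and gene lengths.

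**Figure D2:**
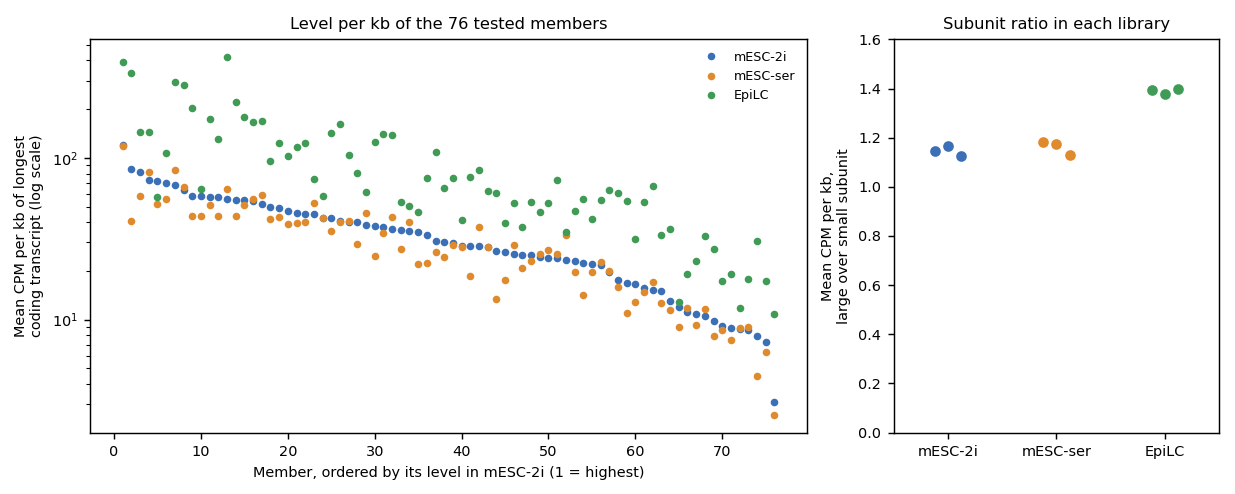
Left, mean CPM per kb of longest coding transcript of each member in the 3 states on a log axis, with members ordered by their level in mESC-2i. Right, the mean level per kb of the large-subunit members divided by that of the small-subunit members in each library, near 1.15 in both mESC states and near 1.39 in EpiLC.

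Promoters of nuclear genes for mitochondrial proteins are known for binding sites of NRF1, of the ETS factor GABP and of YY1. RefSeq promoter windows of build GRCm38.p6, from 250 bases before to 50 bases after the start of the gene, were given for 68 of the 77 members. Those of Mrpl13, Mrpl15, Mrpl19, Mrpl38, Mrpl4, Mrpl54, Mrps28, Mrps34 and Mrps35 are named only. Exact matches were searched on both strands, and matches of different motifs could overlap. The ETS/GABP core CCGGAAG was found in 25 of the 68 members (36.8%), against 13.4% of the 16521 protein-coding genes of the count table that had a window and 9.93% of all 27025 genes with one. The NRF1 core GCGCANGCG was found in 16 members (23.5%), against 10% and 7.03%. The YY1 core AAGATGGC was found in 12 members (17.6%), against 3.64% and 3.19%.

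Of the motifs set beside them for comparison, the SP/KLF core GGGGCGGGG was found in 19.1% of members and 17.9% of coding genes, and the E-box CACGTG in 7.35% and 9.18%. An NRF1 or an ETS/GABP core stood in 35 members (51.5%), against 21.2% of coding genes and 15.5% of all. The median window of members held 21.5 CpG pairs and that of coding genes 14, so the compositions differ as well. A match is a description of letters, not of binding.

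The windows of 6 members are printed here, 5 from genes described below as higher in EpiLC and 1 from Mrps2, which was not called. They were chosen with the values known. Letters run 5′ to 3′ along the gene, and capitals mark the cores. Mrpl12 (chr11:120484387-120484686, plus strand) holds an NRF1 core, Mrpl22 (chr11:58171414-58171713, plus strand) an ETS/GABP core followed by an NRF1 core, Mrpl34 (chr8:71464676-71464975, plus strand) 1 ETS/GABP core, Mrpl52 (chr14:54426659-54426958, plus strand) 2 ETS/GABP cores, and Mrps12 (chr7:28741772-28742071, minus strand) a YY1 and an ETS/GABP core. The window of Mrps2 (chr2:28467816-28468115, plus strand) holds none of the 3 cores. Other members not called in EpiLC against mESC-2i do hold cores, NRF1 in Mrpl10, Mrpl39 and Mrps9, and ETS/GABP in Mrpl3 and Mrpl27. Mrpl11, Mrpl20, Mrpl24 and further members called higher there hold none of the 3. Whether a core goes with a rise was not tested.
Mrpl12: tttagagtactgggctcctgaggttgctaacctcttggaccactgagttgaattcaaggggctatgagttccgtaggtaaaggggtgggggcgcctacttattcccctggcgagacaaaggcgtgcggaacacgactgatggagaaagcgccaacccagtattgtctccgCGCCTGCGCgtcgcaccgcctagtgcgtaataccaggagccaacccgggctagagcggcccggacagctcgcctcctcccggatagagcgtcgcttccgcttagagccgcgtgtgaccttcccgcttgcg
Mrpl22: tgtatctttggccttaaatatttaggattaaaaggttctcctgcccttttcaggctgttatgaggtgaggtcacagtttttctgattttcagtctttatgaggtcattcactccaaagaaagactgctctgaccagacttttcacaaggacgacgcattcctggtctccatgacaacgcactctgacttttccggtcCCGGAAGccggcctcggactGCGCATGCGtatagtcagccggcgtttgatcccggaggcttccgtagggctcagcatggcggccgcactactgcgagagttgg
Mrpl34: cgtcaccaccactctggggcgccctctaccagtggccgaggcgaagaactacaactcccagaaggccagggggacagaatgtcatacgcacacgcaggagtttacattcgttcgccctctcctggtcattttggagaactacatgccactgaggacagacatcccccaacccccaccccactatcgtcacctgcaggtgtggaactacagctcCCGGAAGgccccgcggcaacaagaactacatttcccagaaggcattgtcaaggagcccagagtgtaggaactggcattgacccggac
Mrpl52: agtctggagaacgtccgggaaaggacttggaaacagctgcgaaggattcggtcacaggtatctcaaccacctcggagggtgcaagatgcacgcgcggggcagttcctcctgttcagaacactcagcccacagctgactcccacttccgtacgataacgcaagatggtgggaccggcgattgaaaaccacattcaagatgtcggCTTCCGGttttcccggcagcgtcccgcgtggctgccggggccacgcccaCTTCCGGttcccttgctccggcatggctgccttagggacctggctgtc
Mrps12: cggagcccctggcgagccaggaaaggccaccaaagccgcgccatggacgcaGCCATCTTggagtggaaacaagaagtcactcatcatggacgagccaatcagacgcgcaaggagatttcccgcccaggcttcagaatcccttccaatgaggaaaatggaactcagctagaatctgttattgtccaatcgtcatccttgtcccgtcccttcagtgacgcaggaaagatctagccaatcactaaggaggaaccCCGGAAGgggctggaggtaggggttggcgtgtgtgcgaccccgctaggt
Mrps2: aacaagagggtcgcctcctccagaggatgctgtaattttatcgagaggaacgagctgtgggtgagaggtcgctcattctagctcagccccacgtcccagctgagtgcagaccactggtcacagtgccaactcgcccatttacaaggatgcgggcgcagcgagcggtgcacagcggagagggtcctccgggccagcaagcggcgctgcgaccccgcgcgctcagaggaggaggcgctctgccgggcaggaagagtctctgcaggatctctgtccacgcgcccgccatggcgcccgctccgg

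The first comparison asks how these genes changed as mESC-2i were turned into EpiLC. Nearly all of them rose. Of 76 members tested, 69 were called higher in EpiLC (90.8%), 0 were called lower and 7 were not called, whereas 32% of all 15378 tested genes were called higher and 37.8% lower. The median log2 fold change was 1.22 over members and -0.11 over all tested genes. A gene was called where edgeR's quasi-likelihood test with Benjamini-Hochberg adjustment gave an adjusted p under 0.05 and the log2 fold change was over 0.5 in size. In 73 members every EpiLC library lay above every mESC-2i library (38.6% of all genes), and in 1, Mrps2, every one lay below (43.2%). At an unadjusted p under 0.05, 1 member was lower, and DESeq2 called 0. With total counts in place of TMM, Mrps2 was called lower. That scaling moved the median of all genes by -0.34 in both EpiLC comparisons, and of the genes called the share that was higher from 45.9 to 33.7% here and from 48.4 to 37.4% against mESC-ser. The members' median stood 1.32 above that of all genes under both scalings.

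The largest rise was that of Mrpl34 (chr8:71464959-71465747, plus strand), the counterpart of a small bacterial protein of the large subunit, whose window is printed above. It stood at 37.2, 35.4 and 28.8 CPM (mESC-2i), 41.3, 39.8 and 35.6 CPM (mESC-ser) and 239, 266 and 258 CPM (EpiLC). The mESC states overlapped and EpiLC lay far above both. Its log2 fold change between EpiLC and mESC-2i was 2.90 ± 0.12 (SE, adjusted p = 1.09e-08).

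Mrpl12 (chr11:120484613-120489065, plus strand) forms the flexible stalk of the large subunit that recruits translation factors. Its level was 82.0, 107 and 62.7 CPM (mESC-2i), 98.7, 95.5 and 68.2 CPM (mESC-ser) and 374, 396 and 339 CPM (EpiLC). Again the EpiLC libraries stood apart, and the log2 fold change was 2.12 ± 0.17 (SE, adjusted p = 9.73e-07). Mrpl51 (chr6:125191801-125196269, plus strand), a large-subunit protein specific to mitochondria, was measured at 50.8, 60.5 and 45.4 CPM (mESC-2i), 58, 59.6 and 58.6 CPM (mESC-ser) and 217, 235 and 241 CPM (EpiLC). Its log2 fold change of 2.13 ± 0.12 (SE, adjusted p = 7.16e-08) was close to that of Mrpl12.

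Mrpl20, whose bacterial counterpart binds ribosomal RNA early in the assembly of the large subunit, rose by 2.10 ± 0.14 (SE, adjusted p = 2.98e-07) on the log2 scale, with a mean (± SD, n = 3) of 226 ± 10.1 CPM in EpiLC over 52.1 ± 10.9 CPM in mESC-2i. Mrpl54, another protein of the large subunit specific to mitochondria, rose by 2.00 ± 0.15 (SE, adjusted p = 6.09e-07), with 134 ± 4.47 CPM over 33.1 ± 7.68 CPM. In the small subunit the largest rise was that of Mrps34 (chr17:24895116-24897502, plus strand), a mitochondria-specific protein mutated in human mitochondrial disease. Its level was 37.0, 44.2 and 30.4 CPM (mESC-2i), 41.4, 36.8 and 31.9 CPM (mESC-ser) and 142, 156 and 151 CPM (EpiLC). The groups EpiLC and mESC-2i did not overlap, and the log2 fold change was 1.99 ± 0.13 (SE, adjusted p = 2.44e-07).

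Of the 3 stalk proteins 2 were called higher. Mrpl11, at the base of the stalk, rose by 1.67 ± 0.15 (SE, adjusted p = 2.81e-06) on the log2 scale, near Mrpl12. Mrpl10, which holds Mrpl12 on the ribosome, stood at 71.8, 80.7 and 66.7 CPM (mESC-2i), 74.5, 77.0 and 65.4 CPM (mESC-ser) and 98.8, 98.5 and 99.5 CPM (EpiLC). Every EpiLC library was above every mESC library, but the log2 fold change of 0.42 ± 0.094 (SE, adjusted p = 0.00181) stayed under the fold threshold. Without mESC-2i replicate 2 it was 0.53 and called. The difference between the stalk genes was not tested.

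Around the exit tunnel, where the new chain leaves the ribosome, 7 of 8 members were called higher. Mrpl47 and Mrpl22 rose most, by 1.63 ± 0.10 (SE, adjusted p = 1.39e-07) and 1.69 ± 0.10 (SE, adjusted p = 1.72e-07). Mrpl24 rose by 1.59, Mrpl23 by 1.15, Mrpl17 by 1.13 and Mrpl44, which has the fold of an RNase III, by 1.01. Mrpl45, which ties the ribosome to the inner membrane, rose by 0.66 ± 0.10 (SE, adjusted p = 1.52e-04), and with total counts it gave 0.33 and was not called. Mrpl39 gave 0.49 ± 0.095 (SE, adjusted p = 6.92e-04), just under the fold threshold. It was called without replicate 1 or 2 of mESC-2i (0.55 and 0.56), without replicate 1 or 2 of EpiLC (0.54 and 0.51), and with DESeq2 (0.56).

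Mrpl58, a peptidyl-tRNA hydrolase built into the large subunit and also named Ict1, rose by 1.46 ± 0.10 (SE, adjusted p = 4.06e-07). Of the 9 members of the central protuberance, among which it is counted, 8 were called higher, and Mrpl27 was not (0.40 ± 0.16, SE, adjusted p = 0.0422). Bacteria have 1 protein S18, and mitochondria have 3 relatives of it. Mrps18c rose by 1.71 ± 0.12 (SE, adjusted p = 4.40e-07), Mrps18a, which sits in the large subunit, by 1.33 ± 0.10 (SE, adjusted p = 5.76e-07), and Mrps18b by 0.96 ± 0.092 (SE, adjusted p = 3.82e-06). Mrps30, another member of the large subunit despite its name, rose by 0.92.

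In the small subunit, Mrps12, a protein of the decoding centre, rose by 1.91 ± 0.11 (SE, adjusted p = 1.02e-07). Mrps16 and Mrps22, both known from human mitochondrial disease, rose by 1.67 ± 0.16 (SE, adjusted p = 3.85e-06) and 1.03 ± 0.11 (SE, adjusted p = 7.88e-06). Mrps36, now known mainly as an adaptor of the 2-oxoglutarate dehydrogenase complex of the citric acid cycle, rose by 1.30 ± 0.15 (SE, adjusted p = 1.44e-05).

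The members that were not called had a bacterial counterpart, but for Mrpl39. Mrpl3, a large-subunit protein mutated in human cardiomyopathy, stood at 48.5, 54.4 and 39.8 CPM (mESC-2i), 40.6, 41.0 and 25.8 CPM (mESC-ser) and 56.1, 53.0 and 45 CPM (EpiLC). mESC-2i and EpiLC overlapped, and the log2 fold change was 0.09 ± 0.13 (SE, adjusted p = 0.524). Mrps2 (chr2:28468066-28471178, plus strand), a protein of the small subunit, stood at 150.2, 147 and 149.7 CPM (mESC-2i), 109, 106 and 109 CPM (mESC-ser) and 118, 115 and 124 CPM (EpiLC). Each EpiLC library lay below each mESC-2i library and above each mESC-ser library, with a log2 fold change against mESC-2i of -0.34 ± 0.083 (SE, adjusted p = 0.00286), under the fold threshold. Mrps9 (0.14) and Mrpl19 (0.43) were also not called.

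**Figure D3:**
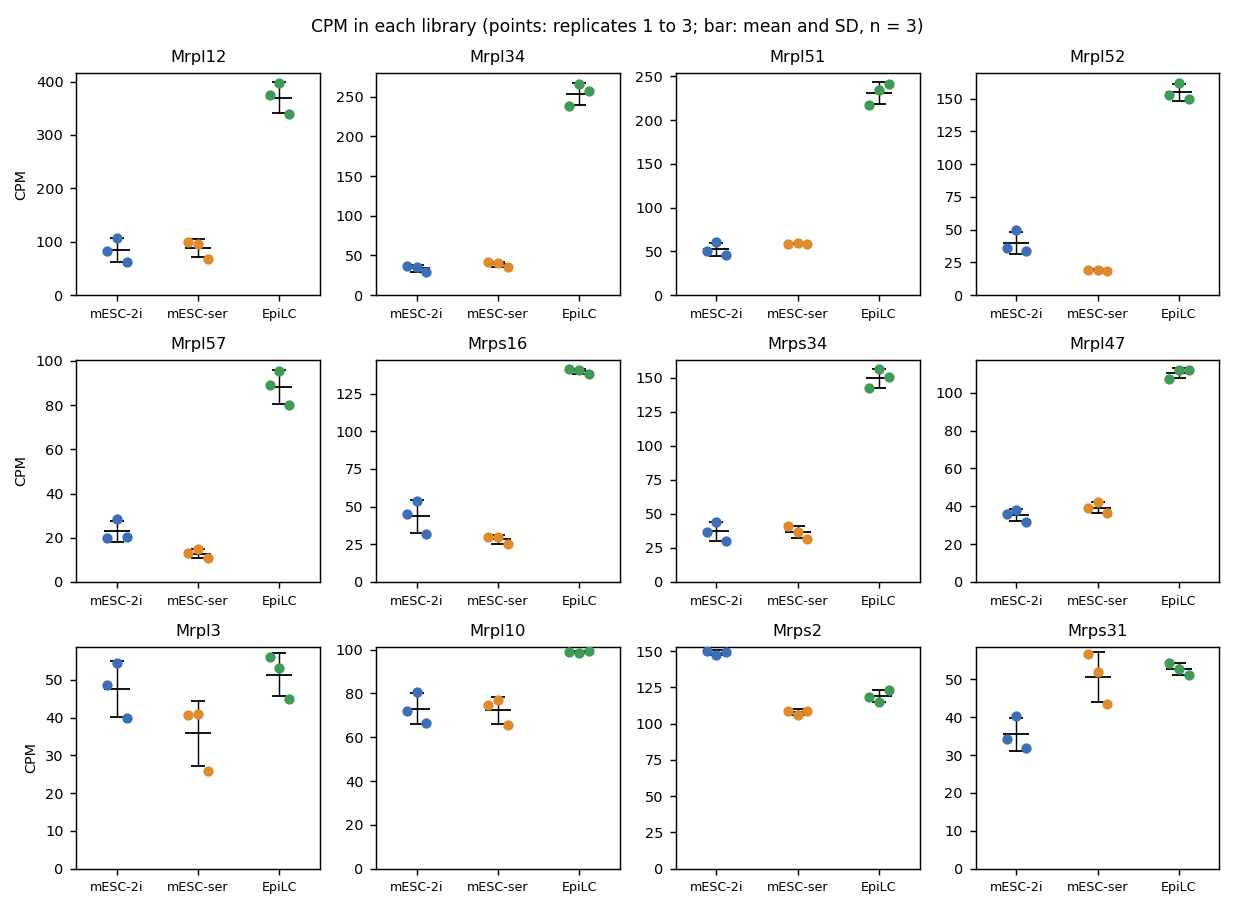
CPM of 12 members in each library (points, replicates 1 to 3) with the mean and SD of each state (n = 3), on axes that start at 0. Mrpl34, Mrpl12, Mrpl51, Mrpl52, Mrpl57, Mrps16, Mrps34 and Mrpl47 stand apart in EpiLC, and Mrpl3, Mrpl10, Mrps2 and Mrps31 show smaller differences.

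Members of the large subunit had a median log2 fold change of 1.33 between EpiLC and mESC-2i, with 44 of 49 called higher, and those of the small subunit 1.11, with 24 of 26. Of the 47 tested members with a bacterial counterpart 41 were called higher, and of the 28 specific to mitochondria 27. The mean level per kilobase of large-subunit members was 103, 108 and 104 CPM per kb in the EpiLC libraries, 37.1, 41.5 and 32.2 in those of mESC-2i and 35.6, 35.9 and 29.4 in those of mESC-ser. That of small-subunit members was 73.9, 78.3 and 74.4 in EpiLC, 32.4, 35.6 and 28.7 in mESC-2i and 30.1, 30.6 and 26.0 in mESC-ser. The ratio of large to small (± SD, n = 3) was therefore 1.39 ± 0.011 for EpiLC, 1.15 ± 0.021 for mESC-2i and 1.16 ± 0.028 for mESC-ser. It was higher in each EpiLC library than in any mESC library. In an exact two-sided permutation test over libraries, EpiLC against either mESC state gave p = 0.1 for this ratio and for the share of counts, the smallest value that 3 against 3 allow. A mean over members is weighted by those with the highest level, such as Mrpl34. Division by length gives short transcripts more weight, and short genes in general stood higher in EpiLC, as described below. How much of the difference in this ratio goes with length was not tested, so it is not shown to be a shift between the subunits.

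Length has to be set beside these rises. Members are short genes, with a median longest coding transcript of 1339 bp against 3103 bp over all tested coding genes, and a median coding sequence of 588 bp against 1398 bp. In EpiLC short genes stood higher in general. Across 13037 coding genes, the members included, the log2 fold change between EpiLC and mESC-2i had a Spearman rank correlation of -0.35 with transcript length, and across the 76 members one of -0.36, or -0.55 with the length of the coding sequence. The other coding genes with a transcript length between the 10th and 90th percentile of the members (714 to 4178 bp) had a median of 0.04, or 0.23 where they were also of like level, and by merged exons -0.04 and 0.16. With the coding sequence as the measure (362 to 1057 bp), the other genes had a median of 0.34, and 43.8% of them were called higher and 26.4% lower. Where they were also of like level, the median was 0.55, and 52.2% and 16.7% were called. All 6 values lie below the median of the members. Within the transcript band the other genes were mostly longer than the members. Between 923 and 1339 bp stood 19 members and 830 others, and between 1339 and 2596 bp 19 and 3601. These medians therefore weigh longer genes more than the members do.

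Within ranges of length the members stood above other coding genes, by an amount that depended on the range. In the shortest of 4 ranges of coding sequence (261 to 435 bp) the median log2 fold change between EpiLC and mESC-2i was 1.73 over members and 1.16 over the others. In the next ranges it was 1.19 against 0.62 (435 to 588 bp), 1.43 against 0.33 (588 to 849 bp) and 0.73 against -0.02 (849 to 1326 bp). All 18 tested members of the shortest range were called higher, and 66.3% of the other genes there. By transcript length the medians were 1.70 over members against 1.30 over others in the shortest range (463 to 923 bp). In the longest range (2596 to 7300 bp) they were 1.12 against -0.45.

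**Figure D4:**
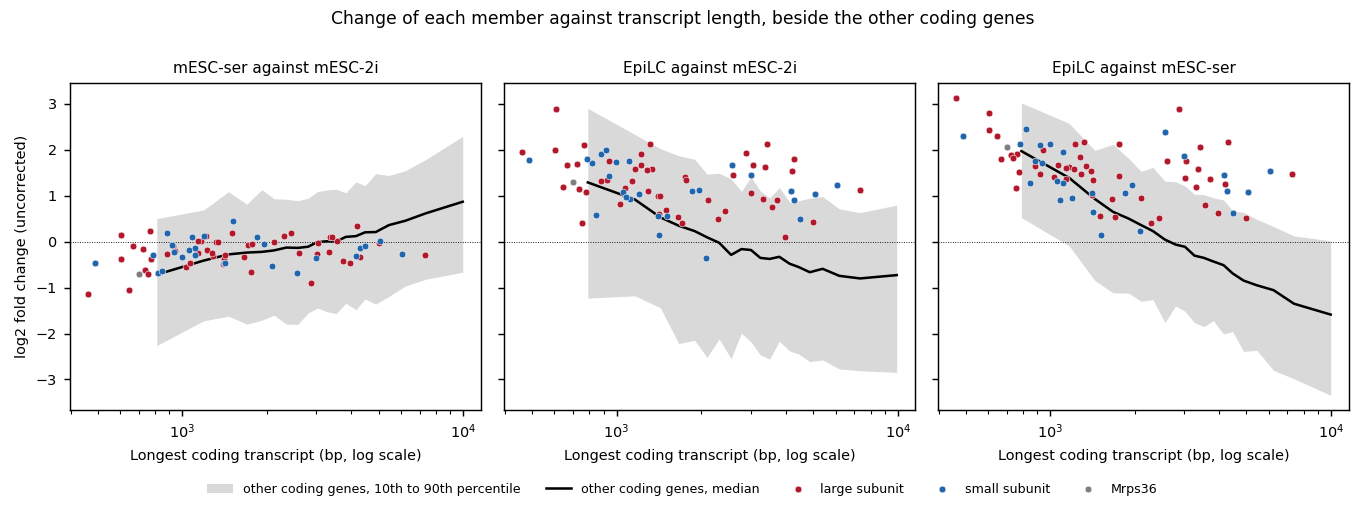
Log2 fold change of each member (red, large subunit; blue, small subunit; grey, Mrps36) against its longest coding transcript on a log axis, in the 3 comparisons. The line and band give the median and the 10th to 90th percentile of the other coding genes, which fall with length in both EpiLC comparisons and rise with it between mESC-ser and mESC-2i.

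**Figure D5:**
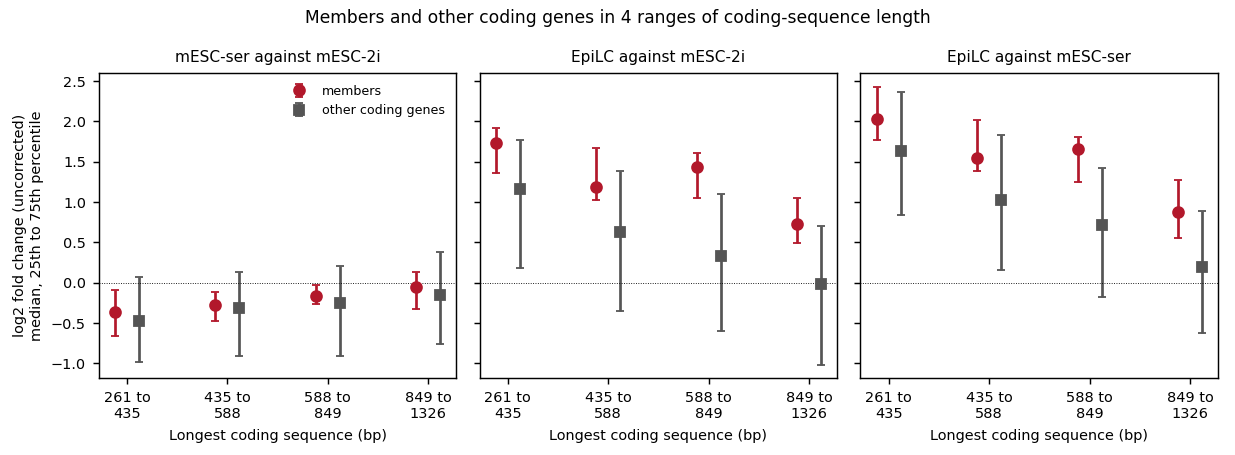
Median log2 fold change, with the 25th to 75th percentile, of members and of other coding genes in 4 ranges of coding-sequence length, in the 3 comparisons. In both EpiLC comparisons the median of the members is above that of the others in each range, and both fall from the shortest to the longest range, except for the members between 588 and 849 bp.

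Further fits took the trend of counts with length and GC content out of each library before testing, with length as all exons merged or as the longest coding transcript. With merged exons, 65 members were called higher and 0 lower (31.1% and 34.4% of all genes), with a median of 1.16. With the longest coding transcript, 45 were called higher and 2, Mrpl27 and Mrps9, lower (30.2% and 35.2%), with a median of 0.67. After this fit the rank correlation with transcript length was -0.03 over coding genes but 0.60 over members, so that within the members the short ones now stood lower. Called higher in all 3 fits were 43 members, 22.1% of all genes being so called. They include Mrpl34 (1.89 with merged exons and 1.28 with the coding transcript), Mrpl12 (1.67 and 1.31), Mrpl51, Mrpl20, Mrpl11, Mrpl47, Mrps16 and Mrps34. Mrpl54 (0.32), Mrps18a (0.16), Mrps18b (0.11), Mrps22 (0.27), Mrpl44 (0.47) and Mrps36 (0.05) were not called with the coding transcript, and Mrpl23 turned to -0.10. How much of the rise of a member goes with its length was not tested beyond these fits. No fit took the coding sequence as the length.

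The comparison of EpiLC with mESC-ser used the same EpiLC libraries, so it is not independent of the one above. Of 76 members 73 were called higher (96.1%), 0 lower and 3 were not called, against 35.5% and 37.8% of all 15345 tested genes. The median was 1.52 over members and -0.07 over all genes. In 75 members the EpiLC libraries all lay above the mESC-ser libraries (39.2% of all genes), and in 0 below (46.5%). At an unadjusted p under 0.05 edgeR had 0 members lower, and DESeq2 called 0. The remaining member was Mrps31.

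Mrpl52 (chr14:54426909-54429756, plus strand), a mitochondria-specific protein near the central protuberance, rose most. It stood at 36.2, 49.6 and 33.3 CPM (mESC-2i), 19.3, 19.3 and 18 CPM (mESC-ser) and 153, 162 and 149.5 CPM (EpiLC). The states were ordered EpiLC, mESC-2i, mESC-ser with no overlap, and the log2 fold change between EpiLC and mESC-ser was 3.13 ± 0.089 (SE, adjusted p = 3.57e-14). Mrpl57 (chr14:57826234-57829296, plus strand), another mitochondria-specific protein, was measured at 19.9, 28.4 and 20.3 CPM (mESC-2i), 13, 14.8 and 10.7 CPM (mESC-ser) and 89.3, 95.6 and 80.0 CPM (EpiLC). Its groups did not overlap either, and the log2 fold change was 2.88 ± 0.12 (SE, adjusted p = 9.30e-13).

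Mrpl34 rose by 2.79 ± 0.091 (SE, adjusted p = 1.04e-13), about as much as against mESC-2i. Mrps18c stood at 32.5, 34.2 and 27.1 CPM (mESC-2i), 19.5, 21.7 and 19.2 CPM (mESC-ser) and 108, 111 and 90.8 CPM (EpiLC), again with EpiLC apart, and rose by 2.44 ± 0.10 (SE, adjusted p = 1.11e-12). Mrpl54 rose by 2.44 ± 0.10 (SE, adjusted p = 1.26e-12). Mrps16 (chr14:20389304-20393634, minus strand), a small-subunit protein, stood at 45.2, 53.7 and 31.6 CPM (mESC-2i), 30.1, 29.9 and 25 CPM (mESC-ser) and 141, 140.4 and 138 CPM (EpiLC), and its rise was 2.39 ± 0.092 (SE, adjusted p = 5.65e-13). All of these but Mrpl34 and Mrpl54 were also called lower in mESC-ser than in mESC-2i, and the comparisons share those mESC-ser libraries.

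Among the members fixed for their role, the stalk proteins Mrpl11 (1.75), Mrpl12 (2.17) and Mrpl10 (0.54 ± 0.085, SE, adjusted p = 1.76e-05) were all called higher. The exit-tunnel members Mrpl17, Mrpl22, Mrpl23, Mrpl24, Mrpl44 and Mrpl47 rose by between 1.35 and 1.90. Mrpl45 rose by 0.51 ± 0.079 (SE, adjusted p = 1.4e-05) and Mrpl3 by 0.62 ± 0.15 (SE, adjusted p = 9.40e-04). Mrpl10, Mrpl45 and Mrpl3 lay near the fold threshold and lost their calls under several settings. Without mESC-ser replicate 3 they were 0.47, 0.48 and 0.42, and with total counts 0.20, 0.17 and 0.28. Mrpl10 and Mrpl45 were also under the threshold with no filter on low counts (0.45 and 0.43), with at least 10 counts in every library (0.47 and 0.44) and with all 9 libraries in one fit (0.47 and 0.44). Mrpl45 was so with upper-quartile scaling and without EpiLC replicate 2 as well (0.49 in each). Not called were Mrps31, a mitochondria-specific protein of the small subunit (0.15 ± 0.10, SE, adjusted p = 0.182), Mrps2 (0.23 ± 0.076, SE, adjusted p = 0.0114) and Mrpl39 (0.40 ± 0.084, SE, adjusted p = 2.99e-04).

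Large-subunit members had a median of 1.58, with 48 of 49 called higher, and small-subunit members 1.30, with 24 of 26. The trend with length had a rank correlation of -0.57 over coding genes and -0.46 over members by transcript length. Other coding genes of like length had a median of 0.15 by merged exons and 0.25 by transcript, or 0.21 and 0.31 where they were also of like level. Those of like coding-sequence length had a median of 0.69, with 56% called higher and 18.1% lower, or 0.77 with 61.0% and 13.6% where they were also of like level. By range of coding sequence the medians were 2.03 over members against 1.63 over others, 1.55 against 1.03, 1.65 against 0.71 and 0.87 against 0.20. By transcript length the medians in the shortest range (463 to 923 bp) were 1.99 against 2.00.

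With the trend taken out by merged exons, 66 members were called higher and 0 lower (34.3% and 31.5% of all genes), with a median of 1.22. With the longest coding transcript it was 33 higher and 3 lower, namely Mrpl27, Mrps18b and Mrps31 (29.7% and 31.9%), with a median of 0.38. The rank correlation with transcript length was then -0.05 over coding genes and 0.65 over members, against -0.46 before. In all 3 fits 33 were called higher, against 21% of all genes. Among them Mrpl57 gave 3.07 with the coding transcript, Mrps16 2.38, Mrpl52 0.82, Mrpl12 0.88 and Mrpl34 0.59. Mrpl57 and Mrps16 have long annotated transcripts (2877 and 2572 bp) for short coding sequences (306 and 405 bp), so this offset treats them as longer genes. Mrpl54 fell from 2.44 to 0.21 in that fit and was not called, nor were Mrpl22 (0.11), Mrpl44 (0.29), Mrps34 (0.32), Mrps36 (0.30) and Mrpl45 (0.36). With merged exons Mrpl45 (0.22) and Mrps18b (0.38) were not called. Mrpl10 turned from 0.54 to -0.08 and -0.27. Mrpl23 (-0.11), Mrps12 (-0.05), Mrps18a (-0.11) and Mrps22 (-0.22) turned with the coding transcript.

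Between the mESC states few members were called. In mESC-ser 0 of 76 were called higher and 12 lower (15.8%) than in mESC-2i, against 25.9% and 30.3% of all 15728 tested genes, both shares being under those of all genes. The median was -0.23 over members and -0.04 over all genes. Every mESC-ser library was above every mESC-2i library in 5 members (36.3% of all genes) and below in 19 (34.4%). Beside the 0 members called higher by edgeR, 2 were higher at an unadjusted p under 0.05, and DESeq2 called 0. Without mESC-2i replicate 3 there were 22 members called lower, and without mESC-2i replicate 2 or mESC-ser replicate 3 there was 1 called higher.

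The largest fall was that of Mrpl52, whose values stand above, with -1.13 ± 0.15 (SE, adjusted p = 8.57e-05) on the log2 scale. Mrpl14, a large-subunit protein at the interface with the small subunit, was measured at 16.1, 21.8 and 13.2 CPM (mESC-2i), 8.96, 11 and 6.09 CPM (mESC-ser) and 39.5, 42.4 and 36.2 CPM (EpiLC), and changed by -1.04 ± 0.24 (SE, adjusted p = 0.00285). Mrpl57 changed by -0.90 ± 0.17 (SE, adjusted p = 0.001). In these 3 members no mESC-ser library reached a mESC-2i library.

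Mrps36 fell as well, with a mean (± SD, n = 3) of 10.0 ± 1.46 CPM in mESC-ser under 15.7 ± 3.49 CPM in mESC-2i, or -0.71 ± 0.18 (SE, adjusted p = 0.00508) on the log2 scale. Mrpl27, near the peptidyl transferase centre, changed by -0.71 ± 0.18 (SE, adjusted p = 0.00527) and Mrps18c by -0.69 ± 0.13 (SE, adjusted p = 7.22e-04). The others called lower were Mrps16 (-0.68), Mrpl30 (-0.66), Mrps6 (-0.64), Mrpl23 (-0.62), Mrpl2 (-0.55) and Mrps2 (-0.52). By subunit 7 of 49 large and 4 of 26 small members were called lower. None of the 3 stalk members was called, with log2 fold changes of -0.07 for Mrpl10, -0.04 for Mrpl11 and 0.0036 for Mrpl12. Mrps31 had the highest log2 fold change of all members, 0.46 ± 0.13 (SE, adjusted p = 0.0113), under the fold threshold.

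Here, too, the values followed length, in the opposite direction, since short genes stood lower in mESC-ser. Over coding genes the rank correlation with transcript length was 0.32, and over members 0.22. Other coding genes of like length had a median of -0.12 by merged exons and -0.15 by transcript, or -0.11 and -0.14 where they were also of like level, all nearer to 0 than the -0.23 of the members. By coding sequence it was -0.25, with 14.9% called higher and 37.8% lower, or -0.21 at like level. By range of coding sequence the medians were -0.36 over members against -0.48 over others, -0.28 against -0.32, -0.16 against -0.26 and -0.06 against -0.15. With the other measures the members were not above the others in every range. In the longest range they had -0.23 against 0.12 by transcript (2596 to 7300 bp) and -0.24 against 0.12 by merged exons, and in the range before it -0.24 against -0.17 by merged exons. With the trend taken out by merged exons, 1 member was called higher and 18 lower (24.4% and 28.7% of all genes), with a median of -0.05. With the coding transcript it was 11 higher and 9 lower (24.3% and 28.1%), with a median of 0.08. The rank correlation with transcript length was then 0.01 over coding genes and turned from 0.22 to -0.54 over members. Mrpl52 was at -0.19 in that fit and not called. Only Mrpl30, Mrpl57 and Mrps16 were called lower in all 3 fits, 3 of 76 members, while 22.7% of all genes were.

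Some values rest on reads that more than 1 gene could hold, and the library kit does not mark the strand. Of the 76 members tested, 45 share no exon base with another annotated gene. Of these 42 were called higher in EpiLC than in mESC-2i (32% of all tested genes) and 42 higher than in mESC-ser (35.5%). In mESC-ser against mESC-2i 8 of the 45 were called lower, a share under the 30.3% of all tested genes. Mrpl18 overlaps Tcp1, a gene that itself stood at 559 CPM in mESC-2i and 1043 in EpiLC on average, and Mrpl46 and Mrps11 overlap each other. Mrps25 shares 4590 of its 6576 merged exon bases with Nr2c2 on the opposite strand, and Mrpl19 1962 of 5450 with Gcfc2. Mrps34, of 2064 merged exon bases, overlaps Mapk8ip3 and Nme3, by 1309 bases on the opposite strand and 763 on the same strand. What these overlaps did to the levels and changes of the 3 members was not tested. Mrpl53 held between 0 and 2 counts in each library. It overlaps Gm42688 on the same strand, which held between 3 and 79 counts, with a mean of 0.513 CPM in EpiLC, 4.37 in mESC-2i and 2.71 in mESC-ser.

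Other genes of mitochondrial translation were called in both directions. Of all tested genes, 32% were called higher and 37.8% lower in EpiLC than in mESC-2i, and 35.5% and 37.8% against mESC-ser. With the coding transcript offsets it was 30.2% and 35.2%, and 29.7% and 31.9%. Of 5 further structural proteins of the ribosome, 4 were called higher in EpiLC than in mESC-2i and 4 higher than in mESC-ser, with 0 lower and medians of 1.58 and 1.52. With the coding transcript offsets the counts were also 4 and 4, with medians of 0.67 and 0.85. Chchd1 stood at 54.3, 69.5 and 38.1 CPM (mESC-2i), 39.5, 42.0 and 22.7 CPM (mESC-ser) and 220.1, 217 and 208 CPM (EpiLC), with the EpiLC libraries far above the rest. It rose by 1.98 ± 0.18 (SE, adjusted p = 2.16e-06) against mESC-2i, Aurkaip1 by 1.58 ± 0.12 (SE, adjusted p = 7.59e-07) and Gadd45gip1 by 1.74 ± 0.12 (SE, adjusted p = 3.20e-07). Dap3, a GTP-binding protein of the small subunit, rose by 0.62 ± 0.11 (SE, adjusted p = 2.88e-04). Ptcd3 was not called in either EpiLC comparison, and was called higher in mESC-ser than in mESC-2i (0.68 ± 0.14, SE, adjusted p = 0.0014).

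Of 14 tested translation factors 7 were called higher and 2 lower in EpiLC than in mESC-2i, with a median of 0.49. With the coding transcript offsets it was 5 and 1, with a median of 0.29. The share called higher there, 5 of 14, was not far above the 30.2% of all tested genes. Mrrf, the factor that recycles ribosomes, rose by 1.30 ± 0.13 (SE, adjusted p = 5.99e-06), and Tufm, the elongation factor that brings the tRNA, by 0.79 ± 0.10 (SE, adjusted p = 2.98e-05). Mtif2, an initiation factor, changed by -0.56 ± 0.13 (SE, adjusted p = 0.00229) and Taco1, needed to translate the mRNA of a cytochrome oxidase subunit, by -1.44 ± 0.24 (SE, adjusted p = 2.04e-04). Oxa1l, which inserts the new chains into the inner membrane, was measured at 86.7, 88.6 and 78.2 CPM (mESC-2i), 41.1, 39.1 and 38.5 CPM (mESC-ser) and 127, 128 and 122 CPM (EpiLC). The states did not overlap in this gene, with mESC-ser lowest, a log2 fold change of -1.15 ± 0.10 (SE, adjusted p = 4.58e-06) between mESC-ser and mESC-2i and of 0.56 ± 0.089 (SE, adjusted p = 1.78e-04) between EpiLC and mESC-2i.

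Of 24 genes for assembly and rRNA modification, 14 were called higher and 1 lower in EpiLC than in mESC-2i, and 15 and 2 against mESC-ser, with medians of 0.58 and 0.70. With the coding transcript offsets, 9 were called higher and 3 lower against mESC-2i (median 0.35), and 9 and 4 against mESC-ser (median 0.07). In that fit 9 of 24 was not far above the shares of all tested genes, 30.2% and 29.7%. Malsu1, which keeps the large subunit from joining too early, rose by 1.41 ± 0.11 (SE, adjusted p = 9.98e-07), and Mrm2, a methyltransferase of the large rRNA, by 1.4 ± 0.13 (SE, adjusted p = 3.98e-06). Of 20 genes that charge mitochondrial tRNAs, 6 were called higher and 4 lower in EpiLC than in mESC-2i, with a median of 0.32. The share called higher, 6 of 20, was near the 32% of all tested genes. With merged exons as the offset 11 were called higher and 4 lower, and with the coding transcript 6 and 3. Yars2 rose by 1.6 ± 0.11 (SE, adjusted p = 3.48e-07) and Iars2 changed by -1.21 ± 0.093 (SE, adjusted p = 7.56e-07). Lars2 was called higher as well, but its EpiLC libraries stood at 589, 290.5 and 1176 CPM, a wide spread.

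Of 6 genes for transcription and RNA stability in mitochondria, 2 were called higher and 0 lower in EpiLC than in mESC-2i. They were Tfam (0.76 ± 0.09, SE, adjusted p = 1.91e-05) and Slirp (1.94 ± 0.16, SE, adjusted p = 1.59e-06). The share called higher, 2 of 6, was near the 32% of all tested genes, and the median of the 6 was 0.01. The messenger RNAs of the mitochondrial genome, the substrates of these ribosomes, were also called in both directions. Of 13, 8 were called higher and 3 lower in EpiLC than in mESC-2i (32% and 37.8% of all tested genes). Against mESC-ser it was 9 and 3 (35.5% and 37.8%), and in mESC-ser against mESC-2i 1 and 9 (25.9% and 30.3%). With the trend of length and GC taken out by merged exons, 0 were called higher and 5 lower in EpiLC against mESC-2i (31.1% and 34.4%). The 5 of 13 called lower was not far above that 34.4%. By the coding transcript it was 0 and 7 (30.2% and 35.2%).

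The factors whose cores were searched were measured as well. Nrf1 stood at 54.0, 62.8 and 62.4 CPM (mESC-2i), 77.0, 71.8 and 79.6 CPM (mESC-ser) and 83.9, 79.3 and 87.7 CPM (EpiLC), with 0.46 ± 0.093 (SE, adjusted p = 8.77e-04) between EpiLC and mESC-2i, under the fold threshold. Gabpa, the DNA-binding subunit of GABP, was measured at 109.7, 98.1 and 114 CPM (mESC-2i), 219.8, 205 and 216 CPM (mESC-ser) and 45.1, 40.9 and 49.1 CPM (EpiLC). It was lowest in EpiLC and highest in mESC-ser, with no overlap, and changed by -1.27 ± 0.11 (SE, adjusted p = 1.32e-06) between EpiLC and mESC-2i. Yy1 was also lowest in EpiLC, with -0.48 ± 0.084 (SE, adjusted p = 3.50e-04) against mESC-2i, under the fold threshold.

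Myc, known for its control of ribosomal genes, stood at 8.96, 8.25 and 7.25 CPM (mESC-2i), 138, 122 and 138 CPM (mESC-ser) and 51.5, 51.7 and 52.3 CPM (EpiLC). It was lowest in mESC-2i and highest in mESC-ser, and a link between Myc and the members was not tested. Esrra, a nuclear receptor that acts on genes of mitochondria, stood at 18.9, 24.5 and 21.8 CPM (mESC-2i), 11.8, 11.7 and 10.9 CPM (mESC-ser) and 31.7, 30.4 and 25.9 CPM (EpiLC), in the order EpiLC, mESC-2i, mESC-ser with no overlap. Of 8 tested factors, 2 were called higher in EpiLC than in mESC-2i, Myc and Ppargc1b, and 1, Gabpa, lower (32% and 37.8% of all tested genes). With merged exons as the offset 5 were called higher and 1 lower, and with the coding transcript 4 and 1. Against mESC-ser 2 were called higher and 4 lower, with merged exons 4 and 4, and with the coding transcript 4 and 2. Ppargc1a did not pass the filter. These are levels of RNA and say nothing of the activity of the factors.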

How the data were processed

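Single-end reads of 50 bp from TruSeq v2 libraries, which do not mark the strand, were processed by the authors with FastQC (0.11.0), Trim Galore (0.6.6), HISAT2 (2.2.1, mm10) and featureCounts of Subread (2.0.1), versions as in the submitters' processing notes. The authors deposited raw read counts per Ensembl gene. The annotation release, the strand setting and the treatment of multi-mapping reads are not given in the sources used here. The serum columns were assigned by the initials of serum and LIF.

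Symbols, lengths, GC content and positions came from GENCODE M21 (GRCm38, the assembly of mm10), which matched 36429 of 38293 identifiers. The rest held 0.596 to 0.827% of the counts. Each pair of states was tested on its 6 libraries in R 4.3.3 with edgeR 4.0.16 (filterByExpr, TMM, quasi-likelihood F-test, Benjamini-Hochberg adjustment over all tested genes), and genes were called at an adjusted p under 0.05 with a log2 fold change over 0.5 in size. The SE was taken from the F statistic. Levels are CPM with TMM factors over 9 libraries. Offsets for length and GC content were splines with 5 degrees of freedom in each library. On simulated counts with 200 changed genes, 95% were recovered for mESC-ser against mESC-2i, 91% for EpiLC against mESC-2i and 95.5% for EpiLC against mESC-ser. Of the genes called there, 4.52, 5.21 and 1.55% were false. These counts held changes of a single size in few genes and no trend with length. The data held many more called genes and such a trend, so the recovery does not carry over to them directly.

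Members were named where they were among the 6 largest rises or falls called without overlap in a comparison, were fixed for a known role, did not pass the filter, or were among the 3 highest or lowest per kilobase. Mrpl2, Mrpl14, Mrpl27, Mrpl30, Mrps2, Mrps6, Mrps9, Mrps31 and others outside these rules were named after their values were seen. The members and all lists were chosen with earlier results of these data known. Mtrfr had no matching row and Pdf did not pass the filter, so 14 of 16 translation factors were tested. Deviations of same-numbered libraries of mESC-ser and mESC-2i had correlations of 0.14 to 0.36, and those of differently numbered ones -0.30 to 0.16. Between EpiLC and mESC-2i these were 0.01 to 0.13 and -0.13 to 0.01, and between EpiLC and mESC-ser 0.01 to 0.04 and -0.04 to 0.03. Only between the mESC states was every same-numbered value over 0.1, and there the replicate numbers were taken to pair the libraries. The main tests did not use this pairing, and the replicate block did. Counts of replicates differed by more than sampling noise. DESeq2 (1.42.0), other scalings, filters and thresholds, a replicate block and leaving out each library were tried as alternatives.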

Additional observations from a re-analysis of the deposited data

How the results depend on the processing

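In both EpiLC comparisons the median of the members stayed above 0, and the number called higher stayed within 1.5 times the one given, under every scaling, filter, threshold and left-out library tried, and under DESeq2. Both were moved by offsets for length and GC content with the longest coding transcript, which were chosen after seeing the data. Against mESC-2i these gave 45 members called higher, 2 lower and a median of 0.67, and against mESC-ser 33 higher, 3 lower and a median of 0.38. Offsets with merged exons gave a median of 1.22 against mESC-ser, also with the replicate block. Total counts as the scaling gave medians of 0.88 and 1.18, and 1 member was called lower against mESC-2i with that scaling and with an adjusted p alone. A coding-sequence measure of like length, also added after seeing the data, moved the median of the other genes from -0.04 to 0.34 and from 0.15 to 0.69. Between mESC-ser and mESC-2i, 1 member was called higher with at least 10 counts in every library, with length and GC offsets (with or without the block) and with an adjusted p alone, and 11 with the coding transcript, where the median turned to 0.080. The count called lower was 21 with an adjusted p alone and 2 at a fold threshold of 1. Leaving out 1 library at a time gave 0 to 1 higher, 10 to 22 lower and a median of -0.31 to -0.12 there, 64 to 73 higher and a median of 1.12 to 1.39 for EpiLC against mESC-2i, and 69 to 73 higher and 1.46 to 1.57 against mESC-ser.

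With the replicate block, which pairs the libraries by number, there were 12 members called lower in mESC-ser, 69 called higher in EpiLC against mESC-2i and 73 against mESC-ser, so it changed no count. Single values, 78 in all, were followed for members among the largest changes of a comparison or fixed for a known role. Of their 1560 alternative values, 1424 kept direction and call. Of those called in either fit, the ones that changed sign did so with the coding transcript offsets, namely Mrpl27 (0.019) and Mrpl23 (0.10) in mESC-ser against mESC-2i, Mrpl23 (-0.10) in EpiLC against mESC-2i, and Mrpl10 (-0.27), Mrpl23 (-0.11), Mrps12 (-0.048), Mrps18a (-0.11), Mrps18b (-0.55) and Mrps22 (-0.22) in EpiLC against mESC-ser. Mrpl10 also turned there with merged exons (-0.084, and the same with the block). Values outside this set turned as well. With the coding transcript offsets Mrpl27 and Mrps9 were called lower in EpiLC against mESC-2i, and Mrpl27 and Mrps31 against mESC-ser. All of these were above 0 in the uncorrected fit. Values called in neither fit also changed sign, 40 in mESC-ser against mESC-2i and 2, both of Mrpl3, in EpiLC against mESC-2i (-0.24 with total counts, -0.022 without mESC-2i replicate 3). They came from scalings, filters, offsets and left-out libraries. In mESC-ser against mESC-2i Mrpl10 gave 0.30 with merged exons, Mrpl11 0.12 without mESC-2i replicate 2 and Mrpl12 -0.037 with upper-quartile scaling. The cause was not tested. With 3 libraries a state, a fold change under the threshold is not shown to be absent.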
